A study of Mus musculus with 6 samples.

Results

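The genes described here are 10 genes of the contractile and mesenchymal cytoskeleton, namely Acta2, Actg2, Tagln, Cnn1, Myl9, Tpm1, Tpm2, Cald1, Vim and Des. They were taken by symbol from the 24393 genes counted in each library, and all 10 were listed in every one. RNA had been sequenced in 6 samples of KH2 cells, a mouse embryonic stem cell line (strain C57/BL/6), with 3 CONTROL and 3 HOXA13 samples. The HOXA13 cells carried a doxycycline-inducible human HOXA13 gene, and came from targeted clones, and the study calls the samples of each group biological replicates. The protocol is the same for all 6 samples. Cells were differentiated on M15 cells, a feeder line derived from mesoderm, in medium with Activin-A, basic FGF, CHIR and Noggin, doxycycline was added on day 4 at 1.25 µg/ml, and on day 6 cells bearing both CXCR4 and E-cadherin were sorted, then kept on doxycycline for a further day before RNA was isolated.

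Smooth muscle and stromal cells pull on their surroundings with bundles of actin and myosin. The actin filament is coated by tropomyosin and braced by calponin, caldesmon and transgelin, and its sliding is switched on through the myosin light chain. Vimentin and desmin form intermediate filaments, vimentin in mesenchymal cells and desmin in muscle. Many of these genes are activated by serum response factor (SRF) with its myocardin-family partners at a DNA element called the CArG box, and several are low in epithelia, which instead carry keratin filaments and E-cadherin junctions.

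The libraries held between 12279884 and 17331638 counts. Levels are given as CPM, read counts relative to the library size after TMM scaling (trimmed mean of M-values), with the libraries of a group in the order of replicates 1, 2 and 3. The detection floor of 3 counts was 0.176 to 0.240 CPM and covers counting error only. Group comparisons used edgeR's quasi-likelihood test over the 13600 genes that passed a filter on low counts, with Benjamini-Hochberg adjustment and a threshold of 0.05, and all 10 genes passed the filter. CONTROL replicate 2 stood apart. Over the tested genes CONTROL replicates 1 and 3 had a Spearman rho of 0.977, whereas CONTROL replicate 2 had values of 0.908 and 0.931 with them and between 0.951 and 0.961 with the HOXA13 replicates. Those of CONTROL replicate 1 with the HOXA13 replicates lay between 0.894 and 0.927, and those of CONTROL replicate 3 between 0.921 and 0.952. Counts of called genes are therefore also given without CONTROL replicate 2 for the 10 genes and for most of the other lists. The labelled cell type was only partly visible in its markers. Cdh1, which encodes E-cadherin, ranged from 192 to 1893 CPM. The 12 endoderm markers summed to 161, 128 and 196 CPM in CONTROL and to 90.5, 126 and 86.9 CPM in HOXA13. Among them the regulators Sox17 and Foxa2 did not exceed 4.84 and 5.04 CPM and Cer1 had no count in any library.

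For 7 of the 10 genes, levels in CONTROL replicates 1 and 3 were above those in CONTROL replicate 2 and in all HOXA13 replicates, the exceptions being Actg2, Cnn1 and Des. Together the 10 genes made up 11533 CPM in CONTROL replicate 1 and 10137 CPM in CONTROL replicate 3. They made up 2220 CPM in CONTROL replicate 2, and 1844, 3145 and 3427 CPM in HOXA13 replicates 1, 2 and 3. The summed level of CONTROL replicate 2 thus lay between the lowest and the highest HOXA13 replicates. All 10 genes had a lower fitted level in HOXA13. Their median log2 fold change was -1.32, against -0.01 over all tested genes. However, none passed the threshold in edgeR (0 of 10, where 0.309% of all tested genes passed, 0.0441% lower and 0.265% higher in HOXA13). At an unadjusted p under 0.05 stood Acta2, Tagln and Vim, 3 of the 10, compared with 14.1% of all tested genes in either direction and 6.02% that were lower. DESeq2 called 0 of the 10 as well, where it called 5.07% of the genes it gave an adjusted p-value, 1.95% lower and 3.13% higher. Limma voom with sample quality weights called 5, namely Tagln, Tpm1, Tpm2, Cald1 and Vim, all lower in HOXA13, where it called 15.4% of all tested genes, 6.34% lower and 9.11% higher. RNA came from bulk samples, in which fewer cells of a type and less RNA per cell cannot be told apart.

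**Figure D1:**
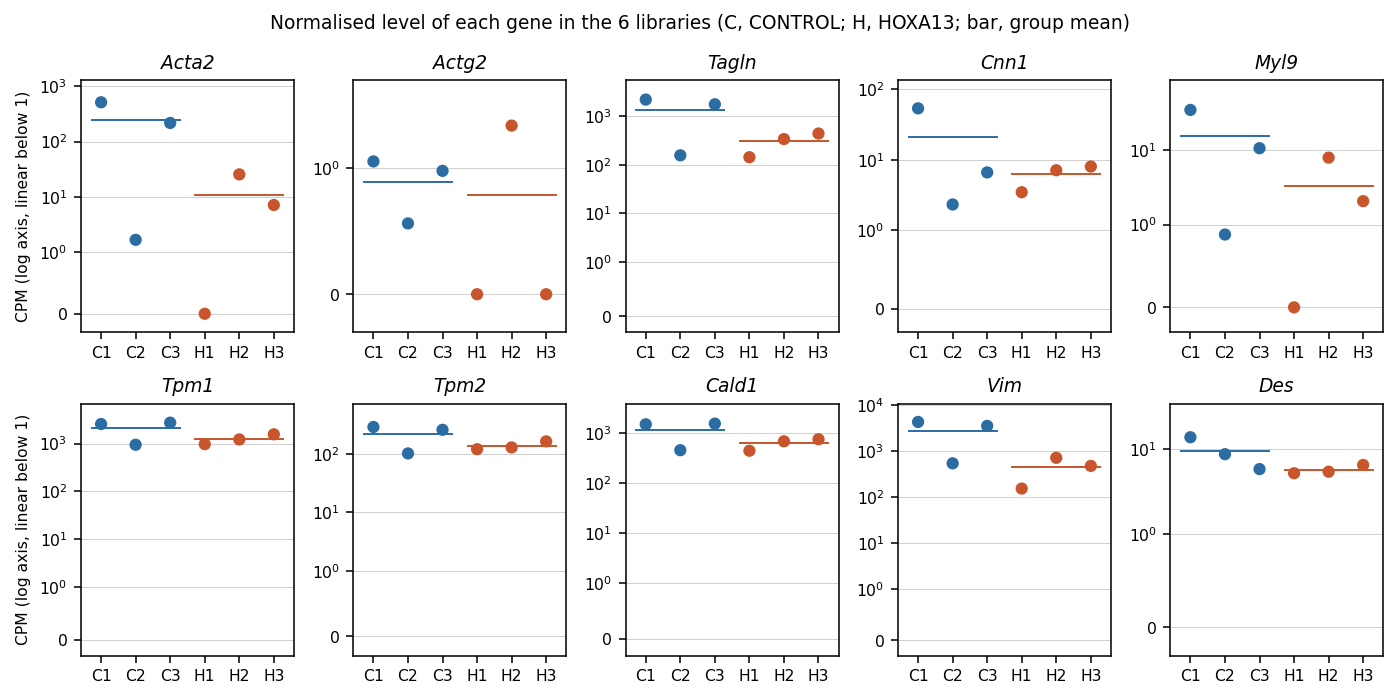
CPM of each of the 10 genes (vertical axis, logarithmic above 1 and linear below) in CONTROL replicates 1 to 3 (blue) and HOXA13 replicates 1 to 3 (orange), with bars at group means. For Acta2, Tagln, Myl9, Tpm1, Tpm2, Cald1 and Vim the points of CONTROL replicates 1 and 3 lie above all HOXA13 points, while the point of CONTROL replicate 2 lies among or below them.

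The actins were examined first. Acta2 (mm9, chromosome 19, 34315580 to 34329826, minus strand) encodes smooth muscle alpha-actin, a marker of smooth muscle cells and myofibroblasts. Its level was 514, 1.68 and 217 CPM in CONTROL against 0, 25.6 and 7.15 CPM in HOXA13. CONTROL replicates 1 and 3 were high, and CONTROL replicate 2 lay inside the HOXA13 range. The log2 fold change was -4.47 (SE 1.79) with an edgeR adjusted p-value of 0.314. Actg2 (chromosome 6, 83462899 to 83486259, minus strand), the gamma-actin of enteric smooth muscle, was low in every library, with 16, 7 and 13 counts in CONTROL against 0, 40 and 0 in HOXA13. Its highest library was HOXA13 replicate 2, at 2.34 CPM, and its groups overlapped (log2 fold change -0.17, SE 1.69). Of the 10 genes it was the only one whose highest library was not a CONTROL library.

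Myl9, Acta2 and Cnn1 showed a wide range of levels, and their promoter windows are given with any sequence match to the CArG box marked. Sequence outside the windows was not searched, and SRF binding was not measured. Promoter windows came from RefSeq (build GRCm38), held 250 bases before the transcription start, and were placed on mm9 by exact match. They were available for 8 of the 10 genes, and Tagln and Actg2 had none. Capitals mark a CArG box by its consensus or with 1 base off in its central bases. The motif reads alike on both strands. The printed Myl9 window stops at the annotated gene start.
Acta2 (mm9, chr19:34329864-34330113, minus strand): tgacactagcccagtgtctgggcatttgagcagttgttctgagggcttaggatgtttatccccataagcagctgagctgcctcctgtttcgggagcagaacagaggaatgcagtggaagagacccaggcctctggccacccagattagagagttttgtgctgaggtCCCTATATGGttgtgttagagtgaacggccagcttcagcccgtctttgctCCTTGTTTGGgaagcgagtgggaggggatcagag
Myl9 (mm9, chr2:156600950-156601155, plus strand): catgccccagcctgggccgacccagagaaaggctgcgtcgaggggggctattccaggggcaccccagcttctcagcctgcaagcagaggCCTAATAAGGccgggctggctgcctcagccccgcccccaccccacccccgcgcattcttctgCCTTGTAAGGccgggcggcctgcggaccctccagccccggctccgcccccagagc
Cnn1 (mm9, chr9:21903447-21903696, plus strand): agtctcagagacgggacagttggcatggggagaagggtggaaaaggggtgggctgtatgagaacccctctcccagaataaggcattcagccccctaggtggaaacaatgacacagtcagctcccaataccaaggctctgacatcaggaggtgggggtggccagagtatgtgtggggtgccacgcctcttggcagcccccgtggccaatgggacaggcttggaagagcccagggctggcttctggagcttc
The Myl9 window held 1 consensus box, CCTAATAAGG, and 1 with a base off, CCTTGTAAGG. The Acta2 window held 2 with a base off, CCCTATATGG and CCTTGTTTGG. The other windows of the list, that of Cnn1 included, held neither. Of 32851 RefSeq promoter windows of the same length, 1.47% held a consensus box and 8.59% held either kind. A match is a description of the sequence, and no match says only that these letters are not in this window. Consensus boxes also stood in the windows of 5 of 27 other actomyosin genes, among them Actg1 and Cnn2, and in that of Srf itself.

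Myl9 (chromosome 2, 156601156 to 156607394, plus strand) encodes the regulatory light chain of smooth muscle myosin, whose phosphorylation starts contraction. It had 34.5, 0.879 and 10.6 CPM in CONTROL against 0, 7.91 and 2.06 CPM in HOXA13. As for Acta2, HOXA13 replicate 1 held no read, and CONTROL replicate 2 lay between HOXA13 replicates 1 and 3. The log2 fold change was -2.19 (SE 1.45, edgeR adjusted p-value 0.568). It was -0.79 without CONTROL replicate 1 and -3.87 without HOXA13 replicate 2.

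The proteins that bind along the actin filament came next. Tagln (chromosome 9, 45737711 to 45744141, minus strand) encodes transgelin (SM22-alpha), an early smooth muscle marker. It stood at 2215, 158 and 1772 CPM in CONTROL against 144, 341 and 443 CPM in HOXA13. CONTROL replicates 1 and 3 lay above every HOXA13 library, whereas CONTROL replicate 2 was nearly as low as HOXA13 replicate 1. The log2 fold change was -2.16 (SE 0.82) with an edgeR adjusted p-value of 0.293. Exons of Tagln overlap those of Pcsk7 on the opposite strand. Pcsk7 was counted at between 38.8 and 57.6 CPM and was higher in each HOXA13 library than in any CONTROL library, which is the opposite order to that of Tagln in CONTROL replicates 1 and 3.

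Cnn1 (chromosome 9, 21903725 to 21914074, plus strand), which encodes calponin 1 of differentiated smooth muscle, was high in a single library. It had 53.4, 2.32 and 6.60 CPM in CONTROL against 3.46, 7.09 and 8.0 CPM in HOXA13. CONTROL replicate 3 lay inside the HOXA13 range. The log2 fold change was -1.75 (SE 1.00, edgeR adjusted p-value 0.501), and without CONTROL replicate 1 it was 0.45 (SE 0.66). Cald1 (chromosome 6, 34548500 to 34725473, plus strand) encodes caldesmon, which restrains the actomyosin interaction. Its level was 1493, 454 and 1543 CPM in CONTROL against 443, 684 and 751 CPM in HOXA13. CONTROL replicates 1 and 3 differed by little, and CONTROL replicate 2 was close to HOXA13 replicate 1. The log2 fold change was -0.89 (SE 0.43, edgeR adjusted p-value 0.414).

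The tropomyosins, which cover the myosin binding sites on actin, moved within a narrower range. Tpm1 (chromosome 9, 66870397 to 66897213, minus strand) had 2570, 945 and 2748 CPM in CONTROL against 973, 1221 and 1565 CPM in HOXA13. Tpm2 (chromosome 4, 43527583 to 43536637, minus strand) had 287, 101 and 257 CPM in CONTROL against 120, 129 and 163 CPM in HOXA13. For both genes CONTROL replicate 2 was the lowest of the 6 libraries and CONTROL replicates 1 and 3 were the highest. The log2 fold changes were -0.74 (SE 0.38) for Tpm1 and -0.65 (SE 0.36) for Tpm2, with edgeR adjusted p-values of 0.449 and 0.476. Tpm1, Tpm2 and Cald1 each make muscle and non-muscle isoforms, which counts per gene do not separate.

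Vim (chromosome 2, 13495554 to 13504453, plus strand) encodes vimentin and had the highest CPM per kb of the 10 in CONTROL replicates 1 and 3. It stood at 4351, 548 and 3576 CPM in CONTROL against 155, 722 and 481 CPM in HOXA13. CONTROL replicate 2 lay inside the HOXA13 range. The log2 fold change was -2.64 (SE 0.78), and the edgeR adjusted p-value of 0.186 was the lowest of the 10. Vim gave 37.7% and 35.3% of the summed CPM of the 10 genes in CONTROL replicates 1 and 3, compared with 24.7% in CONTROL replicate 2 and between 8.40% and 23.0% in HOXA13. Des (chromosome 1, 75356904 to 75365154, plus strand), which encodes desmin, was low and kept another order, with 13.97, 8.79 and 5.85 CPM in CONTROL against 5.23, 5.45 and 6.55 CPM in HOXA13. Here CONTROL replicate 3 and not CONTROL replicate 2 lay inside the HOXA13 range (log2 fold change -0.73, SE 0.43, edgeR adjusted p-value 0.509). An overlapping gene on the other strand, Gm15179, had no count.

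Vimentin was also set against a keratin of the same library. The log2 ratio of Vim to Krt18 CPM, the latter a keratin of simple epithelia, was 2.95, -1.40 and 1.28 in CONTROL against -3.07, -1.33 and -1.92 in HOXA13. CONTROL replicates 1 and 3 were thus on the vimentin side and the other 4 libraries on the keratin side. The group means were 0.95 ± 2.19 and -2.11 ± 0.89 (SD, n = 3), a difference of -3.05. The two-sided exact permutation test gave p = 0.2, where 3 against 3 samples cannot go below 0.1. Without CONTROL replicate 2 the difference was -4.22.

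Levels of different genes were compared per length, as CPM per kb of annotated exon. In CONTROL the order of the mean levels was Vim (1210 CPM per kb), Tagln (871), Tpm1 (322), Cald1 (151), Acta2 (137), Tpm2 (73.9), Myl9 (13.2), Cnn1 (8.77), Des (2.54) and Actg2 (0.570). In HOXA13 the levels of Tagln, Vim and Tpm1 were 195, 194 and 193 CPM per kb. Acta2 stood below Tpm2 there, at 6.13 against 47.1 CPM per kb. The neighbours in the CONTROL order overlapped over the 3 libraries in each case from Vim to Tpm2 and from Myl9 to Des. Cald1 and Acta2, Myl9 and Cnn1, and Cnn1 and Des overlapped in CONTROL replicates 1 and 3 alone. The other overlaps came from the low level of CONTROL replicate 2. The 75-base stretches of the transcripts of each of the 10 genes occurred nowhere else in mm9 or in another gene's transcripts (0% for each).

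The spread inside CONTROL was large for these genes. The distance between the highest and lowest CONTROL library was 2.38 on the log2 CPM scale at the median of the 10 genes, against 0.76 for all tested genes, and 11.4% of all tested genes had a distance at or above 2.38. It was 8.14 for Acta2, 5.09 for Myl9, 4.45 for Cnn1, 3.81 for Tagln and 2.99 for Vim. It lay between 1.24 and 1.76 for Tpm1, Tpm2, Cald1 and Des. In linear terms CONTROL replicate 1 exceeded CONTROL replicate 2 by 306-fold for Acta2, 39.3-fold for Myl9 and 7.95-fold for Vim, but by only 2.72-fold for Tpm1. CONTROL replicate 2 was below both other CONTROL libraries for 9 of the 10 genes, the exception being Des, where 42.0% of all tested genes showed that order. Without CONTROL replicate 2 the median distance between the remaining CONTROL libraries was 0.29, compared with 0.31 for all genes.

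**Figure D2:**
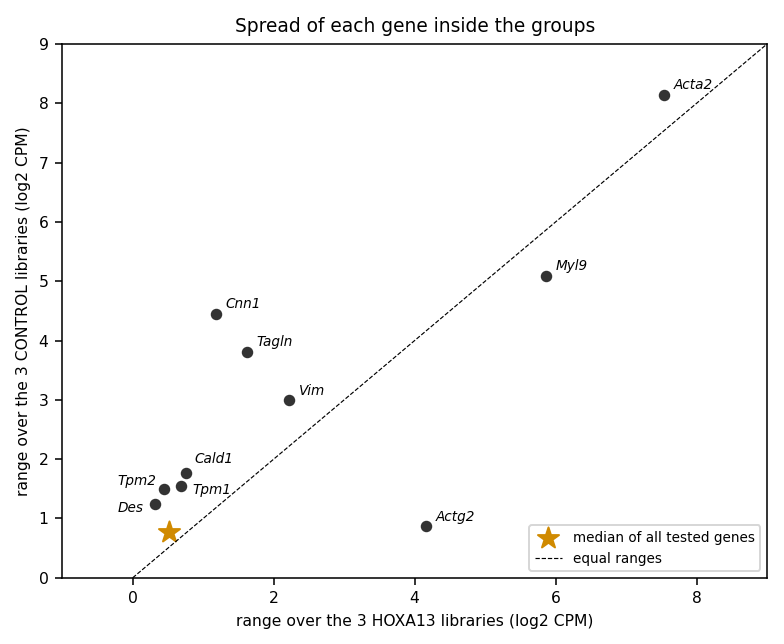
Distance between the highest and the lowest library inside HOXA13 (horizontal axis) and inside CONTROL (vertical axis), both in log2 CPM, for each of the 10 genes, with the median of all tested genes as a star and equal distances as a dashed line. 8 of the 10 genes lie above the line, from Des at 1.24 to Acta2 at 8.14 in CONTROL, and Myl9 and Actg2 lie below it.

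Within HOXA13 the median distance was 1.40, against 0.52 for all tested genes. CONTROL had the wider distance for 8 of the 10 genes and for 66.0% of all tested genes. HOXA13 replicate 1 was the lowest of the 6 libraries, or tied for it, for 7 of the 10 genes. It held no count of Acta2, Actg2 and Myl9. Where a library had no count, the distance depends on the prior count of 2 that was added before taking logarithms.

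No gene of the 10 had separate groups when all 6 libraries were used (0 of 10, where 20.0% of all tested genes had groups without overlap, 8.52% lower and 11.5% higher in HOXA13). With CONTROL replicate 2 left out, 7 of the 10 had both remaining CONTROL libraries above all HOXA13 libraries, namely Acta2, Tagln, Myl9, Tpm1, Tpm2, Cald1 and Vim, where 23.9% of all tested genes were so ordered and 49.2% were without overlap in either direction. In this comparison of 2 with 3 samples edgeR called 6 of the 10 genes lower in HOXA13, where 14.2% of all genes were called, 6.32% lower and 7.92% higher. Vim fell by 3.14 on the log2 scale (SE 0.49, edgeR adjusted p-value 0.00525) and Tagln by 2.70 (SE 0.38, edgeR adjusted p-value 0.00365). Acta2 fell by 5.05 (SE 1.05, edgeR adjusted p-value 0.0153). Cald1 fell by 1.29, Tpm1 by 1.10 and Tpm2 by 1.00. Cnn1 and Myl9 did not pass, with edgeR adjusted p-values of 0.0641 and 0.138, and neither did Des and Actg2. Leaving out any other library left 0 of 10 past the threshold.

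**Figure D3:**
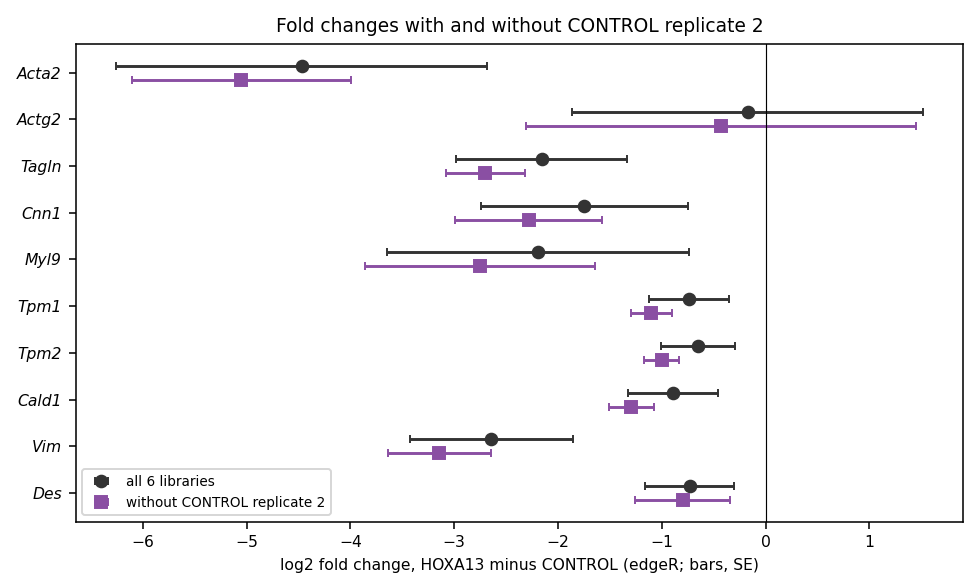
Log2 fold changes of HOXA13 against CONTROL (horizontal axis) from edgeR with their SE, for all 6 libraries (circles) and without CONTROL replicate 2 (squares). The SE of Vim is 0.78 with all libraries and 0.49 without CONTROL replicate 2, and its log2 fold change is -2.64 and -3.14.

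The other genes of the actomyosin apparatus were mixed in direction. Of 31 tested genes, out of 32 listed, 14 had a higher and 17 a lower fitted level in HOXA13 (median log2 fold change -0.03), and none passed the threshold in edgeR (0 of 31, with 8 at an unadjusted p under 0.05, all higher). Tagln2, the transgelin of epithelial and blood cells, stood at 266, 402 and 346 CPM in CONTROL against 810, 655 and 660 CPM in HOXA13 (log2 fold change 1.07, edgeR adjusted p-value 0.0768). Myh14, a non-muscle myosin heavy chain found in epithelia, stood at 1.49, 5.20 and 1.35 CPM in CONTROL against 13.8, 20.4 and 35.7 CPM in HOXA13 (log2 fold change 3.12, edgeR adjusted p-value 0.0954). Csrp1, a LIM protein of the actin cytoskeleton, had a log2 fold change of 1.41 and Csrp2, its relative, one of 0.82. For these 4 genes every HOXA13 library lay above every CONTROL library, CONTROL replicate 2 included. DESeq2 called the same 4 genes higher, and without CONTROL replicate 2 edgeR called 6 of the 31 higher and 4 lower, the latter being Cnn2, Lmod1, Flnc and Palld. In that comparison the median was -0.26, and 12 of the 31 had both CONTROL libraries above all HOXA13 libraries, against 7 below them. Of all tested genes 23.9% had both CONTROL libraries above, and 49.2% were without overlap in either direction.

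Actb, the cytoplasmic beta-actin, lay between 3249 and 4425 CPM in the 6 libraries (log2 fold change 0.09). Nexn, which encodes the actin-binding nexilin, had 32.8, 5.68 and 20.2 CPM in CONTROL against 1.31, 6.74 and 11.8 CPM in HOXA13, with a log2 fold change of -1.56. Tagln3, a neuronal relative of Tagln, was at most 4.32 CPM in CONTROL and between 8.26 and 11.5 CPM in HOXA13 (log2 fold change 1.89, edgeR adjusted p-value 0.275). Tagln and Tagln2 were thus placed in opposite directions. Of the calponin and tropomyosin relatives, Cnn2, Cnn3 and Tpm4 had lower fitted levels in HOXA13, as had Cnn1, Tpm1 and Tpm2. Log2 fold changes were -0.77 (SE 0.40) for Cnn2, -0.37 (SE 0.16) for Cnn3 and -0.29 (SE 0.23) for Tpm4. For Tpm3 the log2 fold change of -0.03 was smaller than its SE of 0.17, so no direction was seen. Myh11, the smooth muscle myosin heavy chain, did not exceed 1.72 CPM in any library. Of the 75-base stretches of the transcripts of Actg1 and Myl6, 67.2% and 62.9% occur elsewhere in the genome or in other transcripts, so the counts of these 2 genes, which are among the 31, are uncertain. The share was 33.3% for Tpm3, 10.7% for Tpm4 and 9.18% for Cnn3, whose counts are less certain for the same reason.

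**Figure D4:**
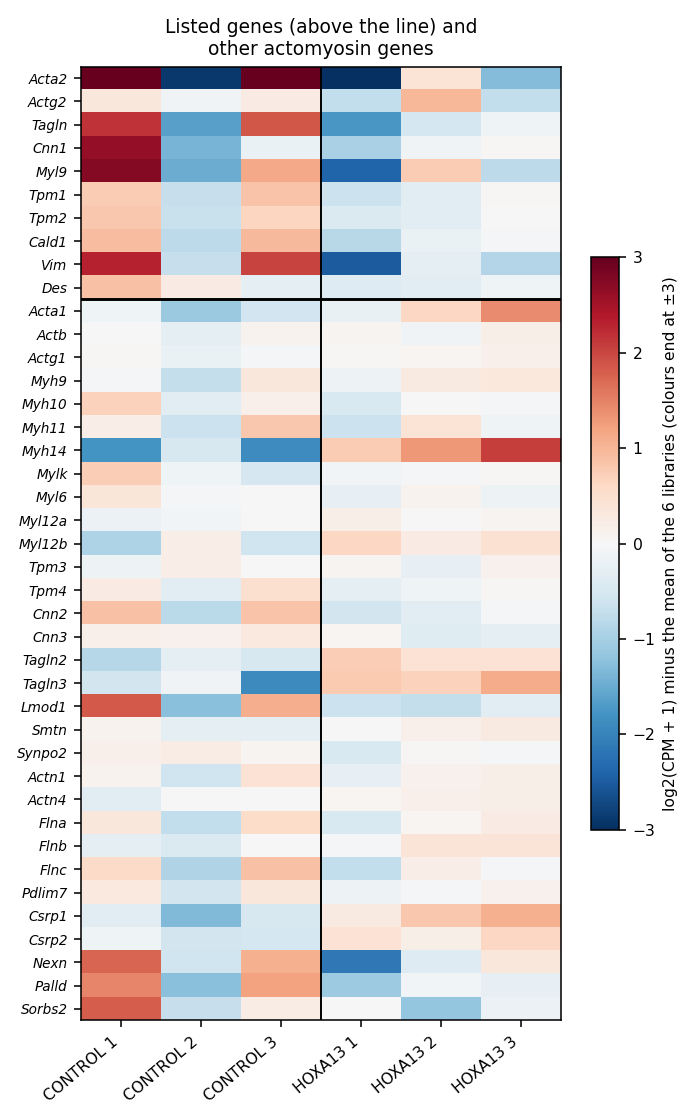
Log2(CPM + 1) of each gene minus its mean over the 6 libraries (colour, red above and blue below the mean), for the 10 genes (above the line) and the 31 other tested actomyosin genes (below it), in the 6 libraries (columns). Most of the 10 are red in CONTROL replicates 1 and 3, whereas Myh14, Tagln2, Csrp1 and Csrp2 are red in the HOXA13 replicates.

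Regulators of this apparatus and the proteins that anchor it were tested in the same fit. Of 15 tested genes for SRF, its cofactors and other regulators of contraction, 7 had a higher and 8 a lower fitted level, the median log2 fold change was -0.03 and none passed in edgeR (0 of 15, with 1 at an unadjusted p under 0.05, which was higher, and 0 with DESeq2). Without CONTROL replicate 2 edgeR called 0 of the 15 as well, and limma voom called 2, both higher. Srf lay between 72.1 and 132 CPM. Myocd, the myocardin gene, had 4.47 CPM in CONTROL replicate 1 and at most 0.60 CPM in the other libraries, and it did not pass the filter. Ankrd1, a stretch-responsive gene, had 34.6, 3.20 and 32.0 CPM in CONTROL against 0, 17.4 and 8.85 CPM in HOXA13, and so kept the order of libraries seen for Acta2. Of 16 focal adhesion linkers 12 had a lower fitted level, with a median of -0.34, and none passed in edgeR (0 of 16, with 3 at an unadjusted p under 0.05). DESeq2 called 1 of them, Tns3 (log2 fold change -0.57), and without CONTROL replicate 2 edgeR called 6 lower, namely Zyx, Tgfb1i1, Parva, Tns3, Lpp and Fhl3, and 1 higher, Pxn. Limma voom with all 6 libraries called 5 lower, Tns1 among them, and 1 higher. With all 6 libraries Tns1, a tensin, had a log2 fold change of -1.80, Tgfb1i1 (Hic-5), a partner of paxillin in smooth muscle, one of -0.97 and Fhl3 one of -0.67.

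Of the 13 tested genes for other intermediate filaments, 9 had a higher fitted level in HOXA13, and none passed in edgeR (0 of 13, with 4 at an unadjusted p under 0.05). Nes, the nestin gene, had 346, 99.4 and 242 CPM in CONTROL against 91.1, 130 and 128 CPM in HOXA13. As for Vim, CONTROL replicates 1 and 3 were highest and CONTROL replicate 2 lay inside the HOXA13 range. Krt19, a keratin of simple epithelia, had 392, 516 and 379 CPM in CONTROL against 695, 1131 and 1523 CPM in HOXA13, and its groups did not overlap (log2 fold change 1.38, edgeR adjusted p-value 0.102). DESeq2 called Krt19 and no other gene of this list. Without CONTROL replicate 2 edgeR called 4 higher, Krt19 and Krt8 among them, and Nes lower (41.9% of the 75-base stretches of Krt8 occur elsewhere, so its count is uncertain), and limma voom called 4 higher and 2 lower. Prph, the peripherin gene, had a log2 fold change of -0.96.

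Markers of the cell types that such samples could hold were summed beside the 10 genes. The 24 fibroblast and mesenchyme markers had sums of 8931, 3445 and 7393 CPM in CONTROL against 2957 to 6132 CPM in HOXA13. Fn1, which encodes fibronectin, made up much of these sums and was not lower in HOXA13 (log2 fold change 0.35). The list had a median log2 fold change of -1.32, with 18 of 22 tested genes lower, of which edgeR called 0 (with 6 at an unadjusted p under 0.05) and DESeq2 called Sparc and Cdh2. Without CONTROL replicate 2 the median was -1.74. In that fit edgeR called 8 of the 22 lower, among them Sparc, Cdh2, Twist1 and Zeb2, where it called 6.32% of all genes lower. Without that library 17 of the 22 were lower without overlap, where 23.9% of all tested genes were so ordered. Limma voom, with all 6 libraries, called 7 lower, where it called 6.34% of all tested genes lower. Col1a1, a chain of type I collagen, had 1163, 18.6 and 295 CPM in CONTROL against 1.38, 118 and 23.2 CPM in HOXA13. Col1a2 and the zinc-finger factor Zeb2 both had a log2 fold change of -2.58 with all 6 libraries. Fap had no count in any library, and Lum had counts in CONTROL replicate 1 only.

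The 18 epithelial markers ran the other way. Their sums were 1040, 5460 and 3136 CPM in CONTROL against 6809 to 7830 CPM in HOXA13. All 18 had a higher fitted level in HOXA13. Of them 16 had no overlap between the groups, where 11.5% of all tested genes were higher without overlap. However, edgeR called 0 (with 12 at an unadjusted p under 0.05) and DESeq2 called 3. Without CONTROL replicate 2 the median log2 fold change moved from 1.42 to 2.22. In that fit edgeR called 15 of the 18 higher, Cdh1 and Epcam among them, where it called 7.92% of all genes higher. Limma voom, with all 6 libraries, called 16 higher, where it called 9.11% of all tested genes higher. With all 6 libraries the protease Prss8 had a log2 fold change of 1.88 and the splicing factor Esrp1 one of 1.79. The 12 mesonephric markers, chosen for the M15 feeder line, had sums of 125, 87.0 and 103 CPM in CONTROL against 57.9 to 96.6 CPM in HOXA13, mostly from Gata3 (log2 fold change -0.18) and Sall1 (-0.20). Pax2, Pax8 and Tcf21 did not exceed 0.879 CPM. edgeR called 0 of the 9 tested (with 0 at an unadjusted p under 0.05 and 0 with DESeq2). The 19 cardiac and skeletal muscle markers summed to between 23.6 and 44.8 CPM, with Myl3 and Myog at 0 counts in every library, well below the summed level of the 10 genes. Tnnt1, a slow skeletal troponin, had a log2 fold change of 2.59 and Actn2, the sarcomeric alpha-actinin, one of 0.62. DESeq2 called Tnnt1 higher and Nkx2-5, a cardiac factor that was at most 5.74 CPM, lower, as did edgeR without CONTROL replicate 2. Of 10 tested endoderm markers 5 had a higher and 5 a lower fitted level, with a median log2 fold change of 0.13 (0.52 without CONTROL replicate 2), and edgeR called 0 (with 1 at an unadjusted p under 0.05 and 1 called by DESeq2). Cxcr4 lay between 2.25 and 11.3 CPM with a log2 fold change of 0.88, and Gata6 and Eomes had log2 fold changes of -1.12 and -1.32, with Eomes called lower by DESeq2 and both called lower by edgeR without CONTROL replicate 2. Pluripotency markers, 12 in all, summed to 1498 CPM in CONTROL replicate 2, against 120 and 207 CPM in the other CONTROL libraries and 441 to 756 CPM in HOXA13. Nanog, Tdgf1 and Dnmt3l, all pluripotency genes, reached 46.9, 27.7 and 97.5 CPM in CONTROL replicate 2 (log2 fold changes -2.71, -3.34 and -2.37). The direction of this list depended on that library and on the model. Its median log2 fold change was -1.03 with all 6 libraries, where edgeR and DESeq2 called none (0 of 11, with 0 at an unadjusted p under 0.05 in edgeR), and 2.12 without CONTROL replicate 2, where edgeR called 6 of 11 higher. Sox2 rose by 3.72 and Utf1 by 2.71 in that comparison, while Nanog and Dnmt3l had log2 fold changes of 0.98 and 0.81 that did not pass. Limma voom, with all 6 libraries, gave a median of 1.29 and 4 called higher, and edgeR with the replicate number as a block gave a median of 0.85. The part of these cell types in the levels of the 10 genes was not tested.

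**Figure D5:**
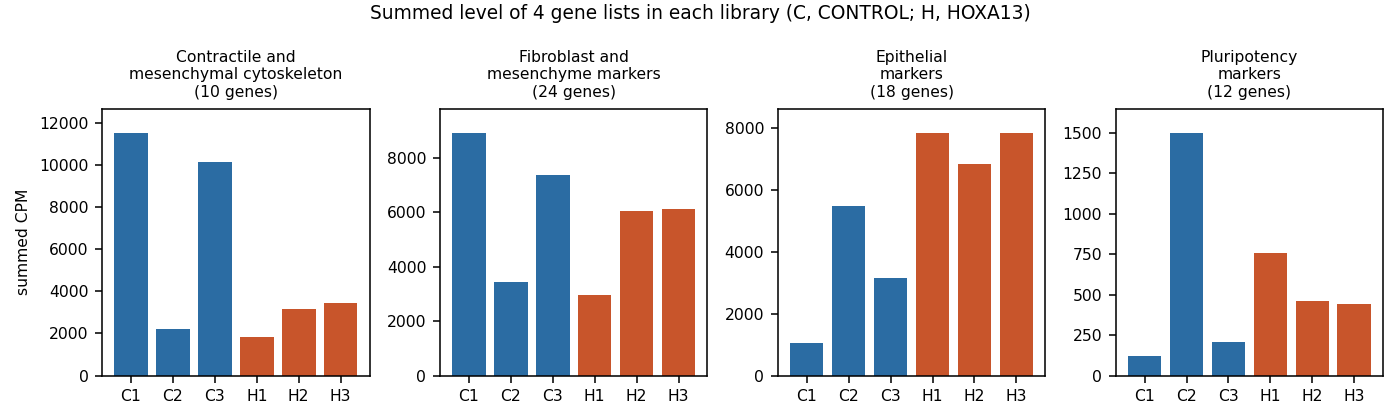
Summed CPM of 4 gene lists (vertical axes) in CONTROL replicates 1 to 3 (blue) and HOXA13 replicates 1 to 3 (orange). The 10 cytoskeleton genes sum to 11533 and 10137 CPM in CONTROL replicates 1 and 3 and to 2220 CPM in CONTROL replicate 2, the library in which the pluripotency markers reach 1498 CPM.

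The genes most like the 10 in their pattern were sought over the 6 libraries. The measure was the root mean square difference, in log2 CPM, between a gene's centred profile and the mean centred profile of the 10 genes, over the 8447 other genes whose mean reached 16 CPM. The profile itself stood at 2.06, -1.01 and 1.26 in CONTROL against -2.09, 0.23 and -0.45 in HOXA13. The 8 nearest genes were Igfbp7 (0.125), Flrt2 (0.208), Magee1 (0.240), Mmd (0.277), Ncam1 (0.298), Timp2 (0.310), Ccnd2 (0.316) and Lrp1 (0.344), where the median of the genes compared was 1.40. Igfbp7, which encodes a secreted binding protein, had 53.3, 6.40 and 39.1 CPM in CONTROL against 3.07, 14.6 and 10.1 CPM in HOXA13. Of the 10 genes Vim (0.475) and Tagln (0.503) lay nearest to their mean profile and Acta2 (2.66) farthest, its swings between libraries being wider than those of the others.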

How the data were processed

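Per the labels and the study's methods, the authors prepared directional poly-A libraries (NEBNext Ultra Directional), aligned reads to mm9 with TopHat and counted them per gene symbol with HTSeq 0.6.1p1. The submitters' processing notes give TopHat2 2.0.14, and the methods name another release. Which annotation and strand setting were used, and how multiply aligned reads were handled, is not given in the sources used here. The deposited values are raw read counts. The 10 genes, the lists and the tests were chosen with earlier results of these data known.

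The main test was run in edgeR 4.0.16 under R 4.3.3 (filterByExpr by group, minimum count 10 and minimum total 15, TMM scaling, glmQLFit and glmQLFTest, group alone, Benjamini-Hochberg adjustment over all tested genes). SE were derived from the F statistic. Log2 CPM used a prior count of 2. As alternatives, DESeq2 1.42.0 (which the study used), limma 3.58.1 voom with sample quality weights, RLE and upper quartile scaling, 2 other filters (1 count in any sample, a mean of at least 50 counts), a prior count of 0.5, a replicate block, and the omission of each library were tried. The code was tested on simulated data. Positions and exon lengths are those of GENCODE M1 on mm9. The named genes were the 10 and, of each other list, those past the threshold and the 3 of at least 5 CPM with the log2 fold change farthest from 0. All other genes named from these lists were chosen after their values were seen. Some genes that this rule names are not reported here. The study calls the samples of a group biological replicates without saying whether each came from a separate clone or culture, so p-values measure the spread between these samples. All 6 samples were used.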

Additional observations from a re-analysis of the deposited data

How the results depend on the processing

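The count of all genes past the threshold was 42 and moved to 722 with DESeq2, 2101 with limma voom, 163 without a filter beyond 1 count and 9 with a mean of at least 50 counts (with 1849 at an unadjusted p under 0.05). It ranged from 0 to 2006 across the fits that each left out a library, the highest without CONTROL replicate 2. Of the 10 genes 0 passed, against 5 with limma voom and 0 to 6 across the fits without a library, the 6 again without CONTROL replicate 2. Actomyosin genes past the threshold numbered 0, against 4 with DESeq2, 11 with limma voom, 3 without a filter and 0 to 10 without a library. Regulators and focal adhesion genes numbered 0, against 1 with DESeq2, 8 with limma voom and 0 to 7 without a library. Members of the 10 without overlap numbered 0 to 7 without a library, and the median CONTROL distance ranged from 0.29 to 2.36. For all of these the cause was not tested.

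The median log2 fold change of the 10 genes stayed negative in all 13 alternatives, from -2.07 to -0.63 without a library and at -1.23 with the replicate block. The Vim to Krt18 difference ranged from -4.22 to -2.05 without a library. With the replicate block 0 genes passed in all (1392 at an unadjusted p under 0.05) and 0 of the 10. Deviations from the group mean had a mean correlation of -0.128 between same-numbered samples and of 0.072 between differently numbered ones. With 3 samples in each group these values cannot settle whether the numbers pair the samples. Of 129 values of single genes under the alternatives, 11 newly passed the threshold and 4 changed sign. These were Cnn1 without CONTROL replicate 1 (0.45) and Actg2 without CONTROL replicate 1 (0.0137), HOXA13 replicate 1 (0.38) and HOXA13 replicate 3 (0.39). Across the fits without a library Cnn1 ranged from -2.28 to 0.45 and Actg2 from -6.65 to 0.39, Acta2 from -6.08 to -3.33, Myl9 from -3.87 to -0.79, Tagln from -2.70 to -1.65, Vim from -3.18 to -2.20, Cald1 from -1.29 to -0.66, Tpm1 from -1.10 to -0.51, Tpm2 from -1.0 to -0.40 and Des from -1.01 to -0.37. The filter at 50 counts removed Actg2. Depth limits Actg2, with at most 40 counts in a library.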
